A study of Homo sapiens with 8 samples.

Results

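The genes described here are 51 human genes known to be induced by interferon, chosen by symbol from the 61228 gene symbols of a table of read counts. The counts come from RNA sequencing of 8 clones of RPMI-8402, a cell line grown from a T-cell acute lymphoblastic leukaemia. Of these clones 4 are NKX2-1 knockout (C12, C15, S04 and S36) and 4 are wild type (WT10, WT13, WT28 and WT30), with no treatment named, and the series compares transcripts of cells with and without NKX2-1, a homeobox transcription factor. The labels name neither the kind of edit, nor what divides C-named from S-named clones, nor any culture or sequencing batch. Each group is 4 clones of 1 cell line, and all p-values measure only how these clones differ among themselves, which may be partly technical.

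Interferons are secreted proteins through which infected or damaged cells warn their neighbours. Binding of a type I interferon to its receptor activates JAK1 and TYK2, which phosphorylate STAT proteins. A complex of STAT proteins with IRF9 then binds interferon-stimulated response elements in the promoters of target genes. The products degrade viral RNA, block translation, trap particles at membranes or raise the sensitivity of the cell to foreign nucleic acid. Many of these genes also keep a low level without any interferon, and DNA fragments or double-stranded RNA of the cell's own making can raise them through cytosolic sensors.

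The libraries differed in depth. C12, C15, S04 and S36 had 25423215, 2730285, 15340134 and 12344549 counts, and the wild-type clones had 18453947 to 22916424. A count of 0 allows 3 counts, which is 1.21 CPM (a count scaled by the library total after TMM adjustment) in C15 and 0.116 to 0.229 in the other knockout clones, against 0.133 to 0.160 in wild-type clones, counting error only. NKX2-1 mRNA was at 72.0, 11.3, 83.6 and 33.4 CPM in C12, C15, S04 and S36, against 53.6 to 63.2 CPM in wild-type clones, so the transcript was not lower in every knockout clone, and a gene-level count does not check the knockout labels, since an edited gene can still be transcribed. The T-cell label was checked with 9 marker genes, whose summed level was 1607 to 2111 CPM in knockout clones and 1605 to 1986 CPM in wild-type clones. CD3D, CD3E, CD3G and LCK make up most of this sum, and 2 of the 9 markers were lower in every knockout clone. CD5 was at 37.1 to 71.2 CPM in knockout clones and 84.8 to 116 CPM in wild-type clones, and CD7 was at no more than 3.8 CPM in knockout clones and at 5.59 to 6.55 CPM in wild-type clones. RAG1 was at no more than 1.43 CPM in any clone. PTCRA ranged from 0.229 to 15.7 CPM in knockout clones and from 0.0944 to 5.14 CPM in wild-type clones. Markers of cells that carry much of the interferon response in blood were near 0. Monocyte markers summed to at most 0.966 CPM in knockout clones and 0.189 CPM in wild-type clones, with LYZ and CD68 at 0, and plasmacytoid dendritic cell markers to at most 0.382 and 0.755 CPM, with LILRA4 and IL3RA at 0. B-cell markers summed to 2.48 to 6.88 CPM in knockout clones and 7.24 to 11.3 CPM in wild-type clones, with MS4A1 at 0. Epithelial and fibroblast markers summed to 6.19 to 14.1 CPM and 12.7 to 20.1 CPM, with EPCAM, COL1A2 and COL3A1 at 0. COL1A1 made up most of this sum, at 5.88 to 13.9 CPM in knockout clones and 12.7 to 20.1 CPM in wild-type clones. No other marker of that list was above 0.306 CPM in any clone. The part of these low sums in the members' levels was not tested. In bulk RNA, fewer cells that transcribe a gene and less RNA per cell cannot be told apart.

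Of the 51 interferon-stimulated genes, 44 passed the filter on low counts and were tested among 14243 genes. The other 7 were at or near 0 in these clones. GBP2, a guanylate-binding GTPase, had 8 counts in all knockout clones together and 52 in all wild-type clones. SP140 (a nuclear body protein), IRF7 (the factor that amplifies interferon production), IFI27 and IFITM3 (a membrane protein that blocks viral fusion) had at most 18 counts in any clone. OASL and IRF9 were listed at 0 in all 8 clones. IRF9 is the DNA-binding partner of STAT proteins described above. RNF31, the gene beside it, was also listed at 0 in all 8 clones, and in GENCODE release 29 48.4% of the exon bases of IRF9 are shared with AL136295.5, a gene on the same strand. The sources used here give neither the annotation nor the counting rules behind the table, so a 0 for IRF9 cannot be read as lack of the transcript.

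Members were transcribed while interferon transcripts were at or near 0. All 21 interferon genes of a listed set failed the filter and 20 of them were at 0 in all 8 clones, IFNK having 2 counts in all. Per length of transcript (counts per kilobase, scaled to the same sum in each clone), the median wild-type level of the 44 genes was 6.47, beside 6.73 over all tested genes. In wild-type clones 18 of the 44 were at 10 or more and 6 were under 1. The highest in wild-type clones was IFI16, a nuclear DNA sensor, at 173 ± 46.5 in knockout clones and 161 ± 16.2 in wild-type clones (SD, n = 4 each). ISG15, the ubiquitin-like modifier, followed at 124 ± 28.9 in knockout clones and 155 ± 23.6 in wild-type clones, and BST2, the tetherin that holds virus particles at the membrane, at 113 ± 39.4 and 126 ± 5.91. The ranges of IFI16 and ISG15 overlapped between these neighbours in the wild-type order, while those of ISG15 and BST2 did not. UBE2L6, the conjugating enzyme for ISG15, and IFITM2, an antiviral membrane protein, completed the highest 5 of wild-type clones. In knockout clones IFITM2 had the highest mean, at 185 ± 30.5 against 87.6 ± 26.4 in wild-type clones. SAMHD1, the nucleotide hydrolase, was the lowest tested member in both groups, at 0.18 per length in knockout clones and 0.13 in wild-type clones.

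The promoters of many of these genes carry the response element by letter. RefSeq promoters (GRCh38.p14) were found for 42 of the 51 genes, and the 250 bases before each listed start were searched on both strands for GAAANNGAAA, the core bound by IRF and STAT complexes, and for TTCNNNGAA, the site bound by STAT dimers. Copies that overlap each other were counted separately. The core was present for 23 of 42 member genes (54.8%), beside 1014 of 27305 genes with a promoter in the table (3.71%). The dimer site was present for 12 of 42 member genes (28.6%), beside 8.09% of all genes. The sites printed here belong to members that the comparisons below turn on, each as 30 bases on the strand on which the core, in capitals, reads as given.
GBP1, chr1:89065316-89065345, plus strand: agagtaatatGAAACTGAAAgtacttcgtt
IFI44, chr1:78649761-78649790, minus strand: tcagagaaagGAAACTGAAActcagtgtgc
OAS3, chr12:112938321-112938350, plus strand: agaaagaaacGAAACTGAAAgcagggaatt
EPSTI1, chr13:42992272-42992301, minus strand: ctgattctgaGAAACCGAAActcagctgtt
ISG20, chr15:88638937-88638966, plus strand: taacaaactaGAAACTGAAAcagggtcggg
RSAD2, chr2:6877622-6877651, minus strand: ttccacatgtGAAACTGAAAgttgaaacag
IFIH1, chr2:162318818-162318847, plus strand: gacaccgcggGAAACAGAAAaggaaagcga
HERC5, chr4:88457035-88457064, minus strand: agctccagtgGAAAACGAAAcataatgttt
IFIT5, chr10:89414513-89414542, minus strand: gtaagcttcaGAAACCGAAActtaatagaa
The core of GBP1 begins 127 bases before its start and that of EPSTI1 50 bases before its start. That of IFI44 begins 18 bases before 1 listed start and 60 bases before the other. The printed core of OAS3 begins 143 bases before its start, and a further copy 12 bases before it. IFIH1, HERC5 and IFIT5 also hold further copies that are not printed. SP110 and SP100 hold no copy of the core in their listed windows. A match is a description of letters and not a site shown to be bound.

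Knockout and wild-type clones were compared gene by gene with edgeR's quasi-likelihood test (two-sided), adjusted by Benjamini-Hochberg over all 14243 genes at a threshold of 0.05. GBP1 rose and SP110 fell in knockout clones, and no other member passed. These 2 are 4.55% of the 44 tested members, beside 0.316% of all genes (45 genes). The members did not move one way. Of the 44, 20 had a fold change above 0 and 24 below 0, with a median log2 fold change of -0.061, beside 0.020 over all tested genes. At an unadjusted p under 0.05 there were 13 members, beside 15.5% of all genes (2202 of 14243).

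**Figure D1:**
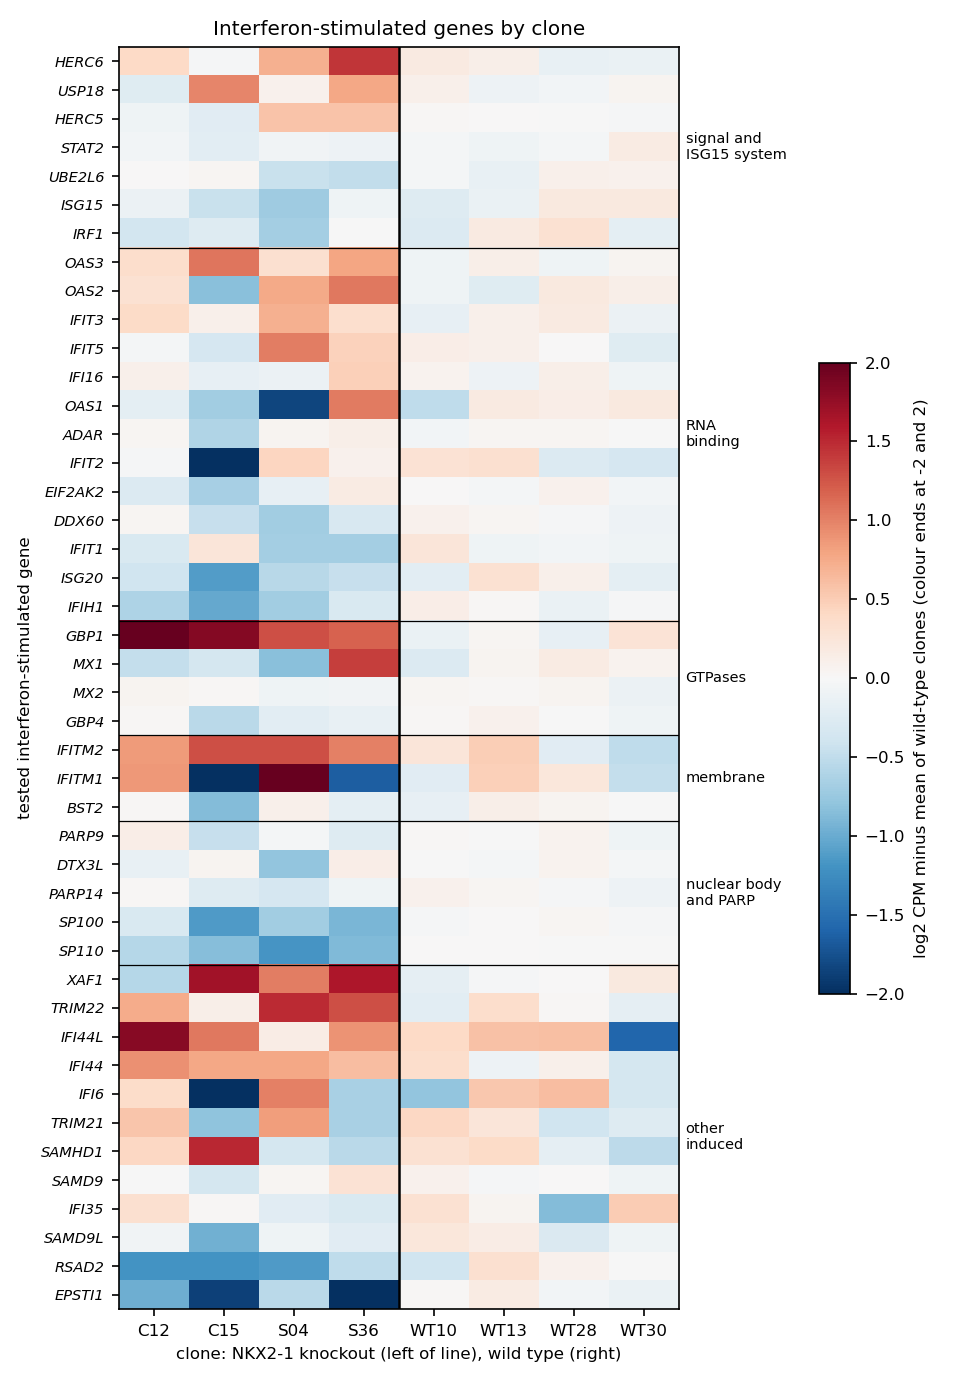
Log2 CPM of each of the 44 tested genes (rows, grouped by role and ordered by fold change) minus the mean of the 4 wild-type clones, in each clone (columns), with the 4 knockout clones left of the line and the 4 wild-type clones right of it. GBP1 is above the wild-type mean in all 4 knockout clones (1.18 to 2.17) and SP110 below it in all 4, while MX1 is above it only in S36 among knockout clones.

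GBP1, a large GTPase that coats vacuoles and bacteria and is known as a marker of interferon gamma, lies on chromosome 1 from 89052319 to 89065360 on the minus strand (GENCODE 29, GRCh38). Its level was 17.8, 14.1, 9.66 and 8.94 CPM in C12, C15, S04 and S36, against 3.51, 3.99, 3.44 and 4.71 CPM in WT10, WT13, WT28 and WT30. Every knockout clone was above every wild-type clone, with both C-named clones above both S-named clones. The means were 12.6 ± 4.15 CPM in knockout clones and 3.91 ± 0.582 CPM in wild-type clones (SD, n = 4 each), and edgeR gave a log2 fold change of 1.68 with SE 0.27 and an adjusted p of 0.0369. The C15 value rests on 35 counts. Tested genes of the same cluster did not pass. GBP3, a close paralogue, had a log2 fold change of 0.40 (edgeR adjusted p = 0.345), GBP5 of -0.24 (edgeR adjusted p = 0.774) and the member GBP4 of -0.20 (edgeR adjusted p = 0.553). Among the 59 tested genes within 5 Mb that are no members, none had a higher fold change than GBP1, and their median was 0.0016 on the log2 scale. Reads shared between near-identical GBP genes could have been split by the counting. MX1 and MX2, the dynamin-like GTPases of the same role group, did not pass. MX1 was at 5.52, 6.06, 4.29 and 20.2 CPM in C12, C15, S04 and S36, against 6.33 to 8.68 CPM in wild-type clones, so that S36 lay above and the other knockout clones below every wild-type clone. MX2 was at 52.8 to 58.4 CPM in knockout clones and 51.9 to 58.3 CPM in wild-type clones.

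SP110, a nuclear body protein related to SP100 and linked to immune deficiency when lost, lies on chromosome 2 from 230167293 to 230225729 on the minus strand. Its level was 62.1, 50.9, 40.7 and 49.7 CPM in C12, C15, S04 and S36, against 92.4, 92.5, 91.1 and 91.5 CPM in WT10, WT13, WT28 and WT30. The wild-type clones were almost level and all knockout clones lay below them. The means were 50.8 ± 8.77 CPM in knockout clones and 91.9 ± 0.686 CPM in wild-type clones (SD, n = 4 each), and edgeR gave a log2 fold change of -0.85 with SE 0.15 and an adjusted p of 0.0421. In GENCODE 29 20.9% of its exon bases are covered by SP140 and AC009950.1 on the other strand, and SP140 had at most 5 counts in any clone. SP100, a constituent of PML nuclear bodies, was at 77.5, 43.6, 59.1 and 50.9 CPM in the same knockout clones, against 94.1 to 98.9 CPM in wild-type clones. Its groups did not overlap either, but its log2 fold change of -0.72 (SE 0.17) did not pass in edgeR (adjusted p = 0.116), though it passed in DESeq2, which called 3.6% of all genes. The other tested members of this group, PARP9, PARP14 and DTX3L, which form or bind an ADP-ribosylation and ubiquitin ligase complex, had log2 fold changes of -0.13, -0.16 and -0.15 and overlapped between the groups.

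Both calls were lost in several smaller sets of clones. Leaving out any 1 wild-type clone, or S04, left no member past the threshold, with 3 to 7 genes of the whole table still called. Over all fits that left out 1 clone, the log2 fold change of GBP1 stayed between 1.43 and 1.82 and that of SP110 between -0.98 and -0.76. Without C15, the shallow library, the same 2 genes passed, beside 0.774% of all genes (114 genes). Without C12 there were 5 members past the threshold, beside 3.13% of all genes (456 genes). Without S36 only GBP1 passed, beside 0.137% of all genes (20 genes).

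**Figure D2:**
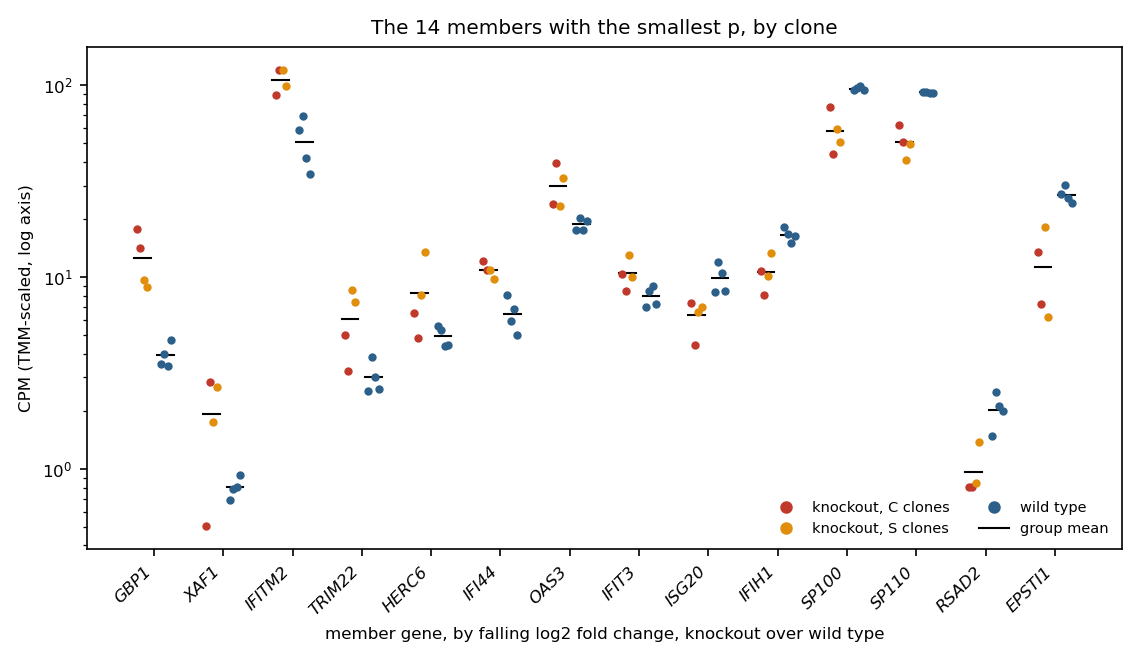
CPM on a log axis in each clone for the 14 members with the smallest edgeR p between knockout and wild-type clones; points left of each tick are knockout clones (red for C-named, orange for S-named), points right of it wild-type clones (blue), and lines are group means. GBP1 and SP110 are the 2 that passed; IFITM2, IFI44 and OAS3 also lie wholly above the wild-type clones, and SP100, EPSTI1, IFIH1, RSAD2 and ISG20 wholly below them.

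Without any test, the clones of the 2 groups can be read for overlap. Every knockout clone was above every wild-type clone for 4 members (GBP1, IFITM2, IFI44 and OAS3), which is 9.09% of the 44, beside 4.44% of all tested genes. Every knockout clone was below every wild-type clone for 6 members (SP110, SP100, EPSTI1, IFIH1, RSAD2 and ISG20), which is 13.6%, beside 5.62% of all tested genes. These members do different things in the response, and 4 of the 6 lower ones lie on chromosome 2. RSAD2 is among the 6 with only 2 counts in C15, too few to place that clone firmly below the wild-type clones.

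The membrane restriction factors block entry or release of viruses. IFITM2 was at 88.9, 119, 120 and 98.9 CPM in C12, C15, S04 and S36, against 58.2, 69.1, 41.7 and 34.3 CPM in WT10, WT13, WT28 and WT30. All 4 knockout clones were above all wild-type clones, of which WT28 and WT30 were lowest. The log2 fold change of 1.07 (SE 0.22) missed the threshold in edgeR (adjusted p = 0.0873) and passed it in DESeq2, under the same 3.6% of all genes. In GENCODE 29 its exons share 22.7% of their bases with IFITM1 on the same strand. IFITM1 itself was at 4.44, 0, 12.6 and 0.688 CPM in the knockout clones, against 1.69 to 3.36 CPM in wild-type clones, so its knockout clones lay on both sides of the wild-type range. BST2 was at 96.8, 52.1, 102 and 83.5 CPM in knockout clones and at 84.8 to 104 CPM in wild-type clones, with C15 low.

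Among the 14 genes that sense, bind, cut or edit RNA or DNA, 13 were tested, 5 had fold changes above 0, 8 below 0, and none passed in edgeR, with 3 at an unadjusted p under 0.05, beside 15.5% of all genes. With DESeq2, which called 3.6% of all genes, IFIH1 passed, and with limma-voom none did. OAS3, which makes the 2-5A messenger that activates RNase L, was at 24.0, 39.6, 23.4 and 32.7 CPM in C12, C15, S04 and S36, against 17.7, 20.4, 17.7 and 19.6 CPM in WT10, WT13, WT28 and WT30. Its knockout clones were all higher, with a log2 fold change of 0.65 (edgeR, SE 0.19, adjusted p = 0.169). IFIH1, the cytosolic sensor of long double-stranded RNA also called MDA5, was at 10.8, 8.07, 10.1 and 13.4 CPM in knockout clones, against 18.2, 16.7, 15.1 and 16.3 CPM in wild-type clones. The groups did not overlap, at -0.62 on the log2 scale (SE 0.19, edgeR adjusted p = 0.171). ISG20, an exonuclease, was at 7.37, 4.44, 6.58 and 7.03 CPM in knockout clones and 8.41 to 12.1 CPM in wild-type clones, with no overlap and a log2 fold change of -0.59 (edgeR, SE 0.22, adjusted p = 0.245). IFIT3, which binds and stabilises IFIT1 on foreign RNA, had a log2 fold change of 0.41 (edgeR, SE 0.20, adjusted p = 0.353), at 8.48 to 13.0 CPM in knockout clones and 7.02 to 9.01 CPM in wild-type clones. The other tested IFIT and OAS genes and the helicase DDX60 did not pass either, with log2 fold changes of -0.39 for IFIT1, -0.077 for IFIT2, 0.40 for IFIT5, -0.052 for OAS1, 0.56 for OAS2 and -0.34 for DDX60. The sensors and effectors with the highest counts overlapped between the groups. IFI16 was at 291 to 457 CPM in knockout clones and 305 to 354 CPM in wild-type clones, ADAR, the RNA editor, at 151 to 247 and 218 to 234 CPM, and EIF2AK2, the kinase PKR, at 136 to 242 and 207 to 228 CPM.

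Of the 13 other induced genes 12 were tested, 8 with fold changes above 0 and 4 below 0, and none passed in edgeR, with 5 at an unadjusted p under 0.05, beside 15.5% of all genes. With DESeq2, at 3.6% of all genes, IFI44, TRIM22 and EPSTI1 passed, and with limma-voom none did. EPSTI1, an interferon response gene of epithelial and immune cells, had the lowest fold change of all 44 members. It was at 13.6, 7.27, 18.4 and 6.19 CPM in C12, C15, S04 and S36, against 27.1, 30.1, 25.7 and 24.3 CPM in WT10, WT13, WT28 and WT30. Every knockout clone was below every wild-type clone, with C15 and S36 lowest, and the log2 fold change of -1.19 (SE 0.30) did not pass (edgeR adjusted p = 0.125). Among the 36 tested non-members within 5 Mb none had a lower fold change, and their median was near 0. RSAD2, the antiviral enzyme viperin, was at 0.810, 0.807, 0.845 and 1.38 CPM in knockout clones, against 1.49 to 2.52 CPM in wild-type clones. The C15 value is 2 counts, under the 1.21 CPM that even a count of 0 allows there. So few counts do not place C15 firmly below the wild-type clones. The fold change was -1.06 on the log2 scale (SE 0.34, edgeR adjusted p = 0.189). IFI44, a cytosolic protein with antiviral activity, was higher in all 4 knockout clones, at 12.1, 10.9, 10.9 and 9.78 CPM, against 8.09, 5.88, 6.84 and 4.97 CPM in wild-type clones. On the log2 scale the fold change was 0.76 (SE 0.21, edgeR adjusted p = 0.152). TRIM22, a ubiquitin ligase that restricts retroviruses, was at 5.02, 3.23, 8.57 and 7.41 CPM in knockout clones and 2.55 to 3.83 CPM in wild-type clones, with a log2 fold change of 1.06 (edgeR, SE 0.31, adjusted p = 0.159). XAF1, a pro-apoptotic antagonist of XIAP, was at 0.502, 2.83, 1.75 and 2.67 CPM in knockout clones and 0.692 to 0.932 CPM in wild-type clones, with C12 below all wild-type clones and the other 3 above, and a log2 fold change of 1.13 (edgeR, SE 0.50, adjusted p = 0.312). Its exons are covered to 38.3% by a gene on the other strand in GENCODE 29, and without a stated strand setting the reads of overlapping genes cannot be told apart. Of the other tested genes here, IFI44L, a relative of IFI44, had a log2 fold change of 0.95 (edgeR adjusted p = 0.415), with WT30 low at 0.355 CPM. IFI6, IFI35, SAMHD1, SAMD9, SAMD9L and TRIM21 lay between -0.27 and 0.19 on the log2 scale.

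In the group of signal transducers and the ISG15 system, no member separated the groups. Of 9 genes 7 were tested, 3 were above 0 and 4 below 0, and none passed in edgeR, DESeq2 or limma-voom. In edgeR 1 (HERC6) reached an unadjusted p under 0.05, beside 15.5% of all genes. STAT2 was at 24.6 to 27.4 CPM in knockout clones and 26.8 to 31.7 CPM in wild-type clones. IRF1, a transcription factor induced by interferon gamma, was at 55.1, 59.3, 44.0 and 70.1 CPM in C12, C15, S04 and S36, against 58.4, 79.8, 87.0 and 61.9 CPM in WT10, WT13, WT28 and WT30. Its log2 fold change of -0.33 (SE 0.18) did not pass (edgeR adjusted p = 0.418). ISG15 was at 47.0 to 72.7 CPM in knockout clones and 64.7 to 88.8 CPM in wild-type clones, also at -0.33 on the log2 scale. USP18, which removes ISG15 and dampens the receptor, was at 8.99, 21.0, 11.2 and 18.2 CPM in the knockout clones and 9.92 to 11.4 CPM in wild-type clones, with C15 and S36 high. HERC5, HERC6 and UBE2L6 had log2 fold changes of 0.26, 0.78 and -0.21, and are described with the C-named and S-named clones.

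**Figure D3:**
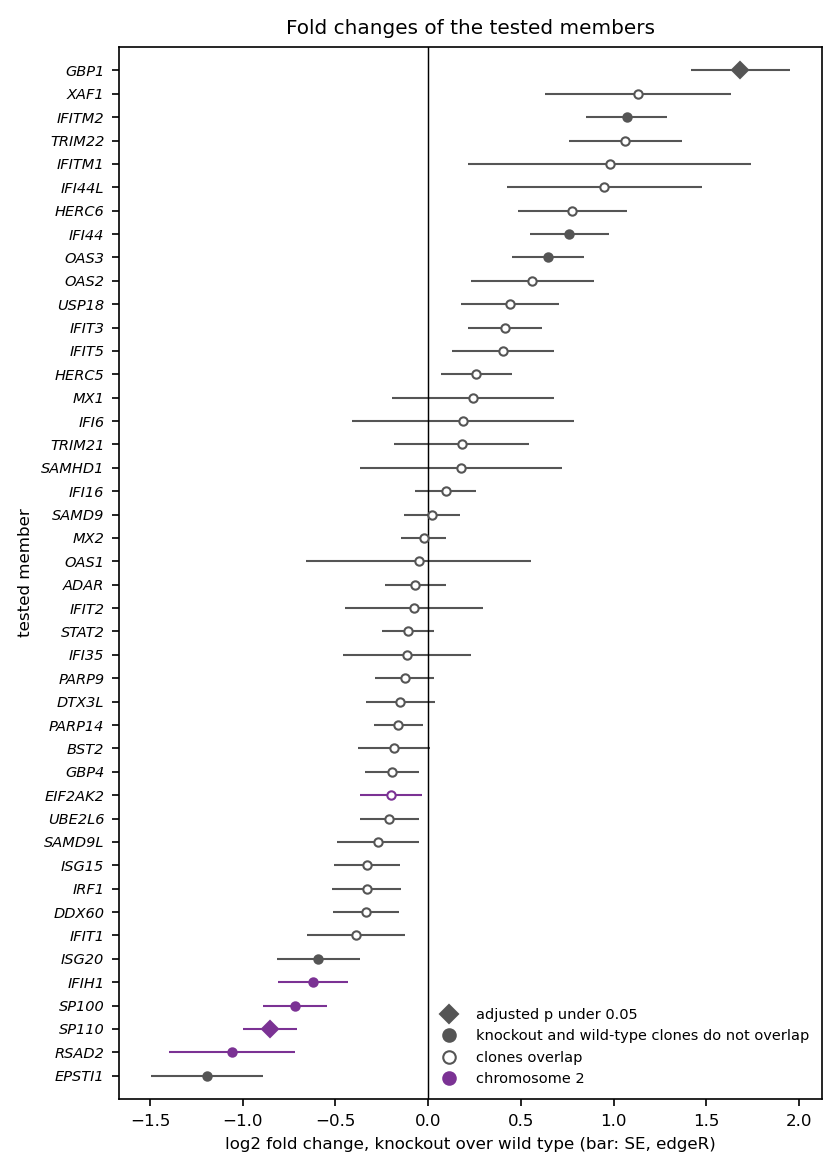
Log2 fold change, knockout over wild type, with its standard error (bars, edgeR), for the 44 tested members. Diamonds mark the 2 that passed, filled symbols members whose clones do not overlap between groups, and purple the 5 members on chromosome 2, all of which are below 0.

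The 5 tested chromosome 2 members (SP110, SP100, IFIH1, RSAD2 and EIF2AK2) all had fold changes below 0, with a median log2 fold change of -0.72, and in 4 of 5 every knockout clone was below every wild-type clone, beside 5.62% of all tested genes. Among these 4, RSAD2 had only 2 counts in C15. The 39 tested members on other chromosomes were 20 above 0 and 19 below 0, with a median of 0.019. Other chromosome 2 genes had a median below 0 too. The 943 tested chromosome 2 genes that are no members had a median log2 fold change of -0.30, and in C12, C15, S04 and S36 their median against the wild-type mean was -0.34, -0.43, -0.35 and -0.24. Around SP110 and SP100, the 33 tested neighbours within 5 Mb had a median of -0.42, and SP140L, the gene between them, had a log2 fold change of -0.64 (edgeR, SE 0.14, adjusted p = 0.101). Less that neighbourhood, SP110 stood at -0.43 and SP100 at -0.30 on the log2 scale. SP110 was the third lowest among itself and these 33 neighbours. RSAD2 kept -0.77 and IFIH1 -0.48 less their own neighbours, while EIF2AK2 came to 0.056. Gene copy number was not measured here, and its part in the lower level of chromosome 2 genes was not tested.

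**Figure D4:**
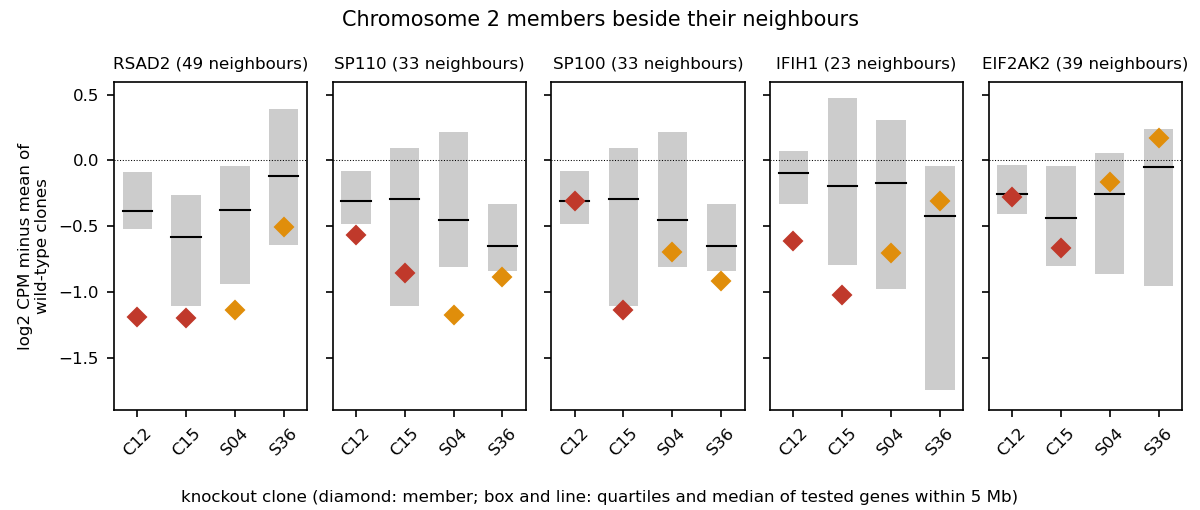
Log2 CPM minus the mean of wild-type clones in each knockout clone for the 5 tested members on chromosome 2 (diamonds, red for C-named and orange for S-named clones), beside the quartiles (grey) and median (line) of tested genes within 5 Mb. The neighbours' medians are below 0 in every panel and clone; RSAD2 lies below its neighbours' median in all 4 clones and EIF2AK2 on both sides of it.

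Members varied more among knockout clones than among wild-type clones, as did genes in general. The median SD of log2 CPM over the 44 members was 0.359 in knockout clones and 0.166 in wild-type clones, beside 0.468 and 0.183 over all tested genes. Members together took 0.208%, 0.155%, 0.209% and 0.238% of counts in C12, C15, S04 and S36, against 0.198% to 0.211% in wild-type clones. The median member stood at 0.010, -0.34, -0.077 and -0.046 on the log2 scale against the wild-type mean in the same knockout clones, and each wild-type clone at -0.12 to 0.060 against the mean of the other 3. C15 was the lowest of all 8 clones for 20 members, S36 the highest for 9 and S04 the highest for 9. C15 is also the shallowest library and had the largest share of mitochondrial counts, 21.2%, against 14.8% to 18.5% in the other knockout clones and 12.9% to 15.1% in wild-type clones. The part of either in its low values was not tested.

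Between C-named and S-named clones no member passed in edgeR. In a fit with 3 groups (C-named, S-named and wild-type clones) 0 of 44 members passed between C and S, beside 0.358% of all genes, and none passed in limma-voom. An unadjusted p under 0.05 was reached by 8 members, beside 17.1% of all genes (2440 of 14243), so their count is near that of genes in general. DESeq2 called 1 member (HERC5), beside 4.07% of all genes. The values of these 8 are given as a description. HERC5, the ligase that attaches ISG15 to new proteins, was at 98.0 and 89.2 CPM in C12 and C15, at 156 and 155 CPM in S04 and S36, and at 102 to 106 CPM in wild-type clones. The S clones stood well above a narrow wild-type range and the C clones below it, with a log2 difference C minus S of -0.72 (SE 0.14, edgeR adjusted p = 0.0621). HERC6, its neighbour in the same cluster on chromosome 4, was at 6.52 and 4.84 CPM in C clones, 8.09 and 13.4 CPM in S clones, and 4.39 to 5.59 CPM in wild-type clones. IFIT5, a binder of RNA ends, was at 9.41 and 7.67 CPM in C clones, 19.9 and 13.4 CPM in S clones, and 8.17 to 10.6 CPM in wild-type clones (C minus S -0.93, SE 0.28, edgeR adjusted p = 0.149). The same order, C below S, held for TRIM22 (-0.87), OAS2 (-0.92) and EIF2AK2 (-0.46), for which the edgeR adjusted p was 0.244, 0.270 and 0.235. UBE2L6 ran the other way, at 99.6 and 103 CPM in C clones, 73.2 and 71.1 CPM in S clones, and 90.3 to 106 CPM in wild-type clones (C minus S 0.49, SE 0.15, edgeR adjusted p = 0.157). GBP1 was also higher in C than in S clones (0.80, SE 0.27, edgeR adjusted p = 0.187).

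**Figure D5:**
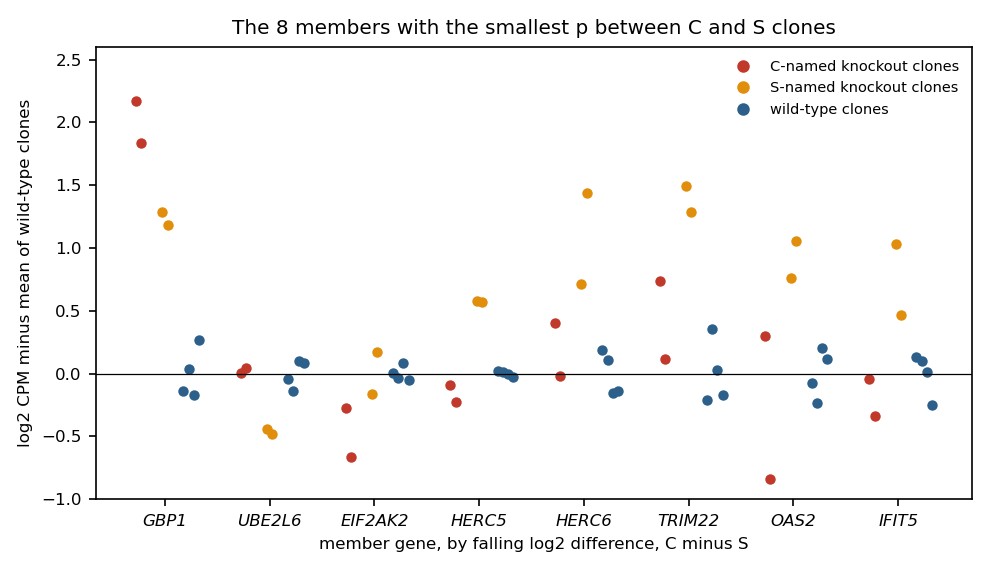
Log2 CPM minus the mean of wild-type clones in C-named knockout clones (red), S-named knockout clones (orange) and wild-type clones (blue) for the 8 members with the smallest edgeR p between C and S clones. For HERC5 both S clones are near 0.6 with the C clones below 0, and for GBP1 all 4 knockout clones are above the wild-type clones with the C clones highest.

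Each kind of knockout clone was also set against the same 4 wild-type clones in that fit, so the contrasts share their controls. In C-named clones GBP1 rose (log2 fold change 2.05, edgeR adjusted p = 0.0219) and no other member passed, which is 2.27% of members, beside 0.0351% of all genes. That call was lost without any 1 of the 4 wild-type clones and with libraries thinned to the shallowest, which left 0 members. Each of these fits called 1 gene of the whole table. In S-named clones 7 members passed, which is 15.9%, beside 9.65% of all genes. GBP1 (1.25), HERC5 (0.57), HERC6 (1.12), IFITM2 (1.11) and TRIM22 (1.41) rose, and SP110 (-1.02) and SP100 (-0.80) fell, the values being log2 fold changes of S-named over wild-type clones with edgeR adjusted p between 0.00705 and 0.0419. The count of 7 became 1 without WT28, 2 without WT10 or WT30 and 4 without WT13. Of all genes, 2.94%, 3.42%, 2.05% and 2.87% were called without WT28, WT10, WT30 and WT13. Counts without 1 knockout clone are not given, since those fits leave 1 clone of its letter. With 2 clones of each letter, a clone's own state and its letter cannot be told apart.

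Genes that act upstream in the pathway were followed as further lists. Of 10 receptor and kinase genes 8 were tested, with 7 fold changes above 0. None passed between knockout and wild-type clones in edgeR, DESeq2 or limma-voom. In edgeR 1 reached an unadjusted p under 0.05, beside 15.5% of all genes. TYK2, the kinase bound to the interferon receptor, was at 82.8, 86.4, 82.7 and 102 CPM in C12, C15, S04 and S36, against 72.0 to 79.9 CPM in wild-type clones, with no overlap and a log2 fold change of 0.22 (edgeR, SE 0.13, adjusted p = 0.448). JAK1, the partner of TYK2, was at 106 and 94.5 CPM in C12 and C15 and at 149.6 and 130.5 CPM in S04 and S36, against 95.3 to 107 CPM in wild-type clones. In S-named clones over wild type it had a log2 fold change of 0.45 with SE 0.13, which missed the threshold in edgeR (adjusted p = 0.0595) and passed it in DESeq2, beside 13.5% of all genes, and in limma-voom, beside 1708 of 14243 genes. JAK2, the kinase of the interferon gamma receptor, was at 4.84 to 7.56 CPM in knockout clones and 3.96 to 6.23 CPM in wild-type clones. Of 6 interferon regulatory factors outside the members 3 were tested and none passed in the 3 tools, nor reached an unadjusted p under 0.05. IRF3, which switches on interferon genes, was at 17.7 to 26.6 CPM in knockout clones and 21.0 to 24.5 CPM in wild-type clones, IRF2 had a log2 fold change of -0.24, and IRF5, with 105 counts over all 8 clones, of 0.93 (edgeR adjusted p = 0.359).

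Of 16 nucleic acid sensors and adaptors 8 were tested, and none passed between knockout and wild-type clones in the 3 tools. In edgeR 2 reached an unadjusted p under 0.05, beside 15.5% of all genes. TBK1, the kinase that activates IRF3, was at 7.95, 2.42, 14.4 and 11.5 CPM in C12, C15, S04 and S36, against 6.12, 4.25, 5.38 and 3.15 CPM in WT10, WT13, WT28 and WT30. Both S clones were high and C15 was low on few counts. TBK1 rose in S-named clones against wild type, by 1.46 on the log2 scale (SE 0.37, edgeR adjusted p = 0.0411), in a contrast that called 9.65% of all genes. TLR3, an endosomal sensor of double-stranded RNA, was at 1.70, 1.61, 3.02 and 2.22 CPM in knockout clones and 1.04 to 1.54 CPM in wild-type clones, with no overlap and a log2 fold change of 0.80 (edgeR adjusted p = 0.281). IKBKE, a kinase related to TBK1, had a log2 fold change of 0.29 (edgeR adjusted p = 0.639). CGAS and STING1, which sense DNA in the cytosol, were too low to be tested, with 12 and 38 counts over all 8 clones. STING1 was at 0.309, 0, 0.664 and 1.07 CPM in C12, C15, S04 and S36, against 0 to 0.133 CPM in wild-type clones. CGAS was at 0 to 0.458 CPM in knockout clones and 0 to 0.0525 CPM in wild-type clones. In C15 even a count of 0 allows 1.21 CPM. Of 9 negative regulators 7 were tested and none passed in the 3 tools, with 1 at an unadjusted p under 0.05 in edgeR, beside the same 15.5%. RNASEH2A, RNASEH2B and RNASEH2C are the RNase H2 subunit genes, whose loss is known to raise interferon-stimulated genes. These 3 had log2 fold changes of -0.41, -0.30 and -0.28 with edgeR adjusted p of 0.324, 0.420 and 0.305. For 2 of the 7, RNASEH2C and PTPN2, every knockout clone was below every wild-type clone, beside 5.62% of all tested genes. The opposite order, seen for TYK2 and TLR3, held for 4.44% of all tested genes. NLRC5 and CIITA, transactivators of HLA genes, had 0.18 and 0.59 on the log2 scale and did not pass in any of the 3 tools, nor reach an unadjusted p under 0.05.

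Fold changes by promoter core were split without a test. The 21 tested members with the core had a median log2 fold change of 0.019, with 11 above 0 and 10 below. The 17 tested members with a listed promoter and no core had a median of -0.12, with 5 above 0 and 12 below. The 6 tested members without a listed promoter had a median of 0.50, with 4 above 0 and 2 below. Of the chromosome 2 members IFIH1 and RSAD2 hold the core while SP110, SP100 and EIF2AK2 do not.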

How the data were processed

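The table deposited by the authors holds raw read counts of 8 clones, used unchanged. Per the labels' protocols, total RNA was sequenced on Illumina libraries. The submitters' processing notes list hg38 and the tools TopHat2, Subread, SAMtools and FastQC; roles, versions, annotation and strand setting: not given in the sources used here. Chi-square over degrees of freedom between 2 clones of a group was 25.9 or more (knockout) and 12.3 or more (wild type). Clones thus differed by more than counting error. These values cannot show that the clones are independent, and each was treated as a separate sample by its name. Counts were filtered with filterByExpr, scaled with TMM factors and tested with edgeR 4.0.16 (R 4.3.3); log2 CPM used a prior count of 2. DESeq2 1.42.0 and limma 3.58.1 (voom) were alternatives, beside other filters, thinning, C or S clones alone and leaving out each clone. Positions and lengths came from GENCODE 29, matched for 57038 symbols. The test was tried on simulated counts. Members and lists were chosen with earlier results of these data known. Named members were those past the threshold, the 14 with the smallest p for knockout against wild type, the 8 with the smallest p for C against S, and the 5 with the highest level, with up to 3 genes of each pathway list; others were named after their values were seen. One named gene is left out here.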

Additional observations from a re-analysis of the deposited data

Results flagged for a closer look

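In 1 of 44 groups of 4 clones examined, a single clone stood far from the rest. RSAD2, for the enzyme viperin, was at 0.575 log2 CPM in S36, while the other 3 knockout clones were between -0.117 and -0.0592. Chance alone flags about 2.2 of 44 such groups. The S36 value was still below all 4 wild-type clones.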

How the results depend on the processing

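The log2 fold changes recomputed under alternatives, those of the 14 members with the smallest p for knockout against wild type and the 8 for C against S, kept their sign. EIF2AK2, at -0.20 for knockout over wild type, came to 0.10 less its chromosome and 0.056 less its neighbours. The count of members past the threshold in knockout against wild-type clones, 2 in the report, was 2 with DESeq2 size factors in edgeR, with the stricter filter and with limma-voom. It was 5 with no low-count filter, 8 with DESeq2, 0 with libraries thinned to the shallowest, 1 with C clones alone and 11 with S clones alone, beside 1.85%, 3.6%, 0.0309%, 0.0395% and 14.5% of all genes called under these settings. Leaving out 1 clone gave 0 to 5, beside 0.0203% to 3.13% of all genes. Between C and S clones the count, 0 in the report, was 1 with DESeq2, beside 4.07% of all genes. Leaving out 1 wild-type clone gave 0, with 0 genes of the whole table called. Fits without 1 knockout clone leave 1 clone of its letter. Their counts are not given, and the 0 does not cover them. The next counts were examined under alternatives chosen after seeing the data. For C-named clones against wild type the count of 1 became 3 with no filter, 2 with DESeq2 and 0 when thinned. Of all genes, 0.827%, 0.541% and 0.0103% were called under these settings. Leaving out 1 wild-type clone gave 0, with 1 gene of the whole table called. For S-named clones the count of 7 became 3 when thinned, beside 6.63% of all genes. It was 9 with no filter (7.23% of all genes) and 10 with DESeq2 (13.5%) or limma-voom (12%). Leaving out 1 wild-type clone gave 1 to 4 members, beside 2.05% to 3.42% of all genes. For C-named and S-named clones against wild type, counts without 1 knockout clone are not given for the same reason as between C and S. The median log2 fold change of tested members, -0.061, ran from -0.13 with C clones alone to 0.069 with S clones alone. SP110 moved to -0.55 less the median of its chromosome and to -0.43 less its neighbours within 5 Mb. The edgeR adjusted p of GBP1 ran from 0.0227 to 0.157 over fits that left out 1 clone, and that of SP110 from 0.0136 to 0.169. The cause of these differences was not tested. In C15, the shallowest library, 7 members had no count, against 5 in S04, 3 in S36, 2 in C12 and 2 or 3 in wild-type clones. OASL and IRF9, at 0 in all 8 clones, are among them. The part of depth in these zeros was not tested. No paired analysis was possible because the labels give clone names and no replicate number shared between groups.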
